A study of Danio rerio with 6 samples.

Results

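The genes described here are 10 antioxidant and Nrf2 pathway genes of the zebrafish larval fin fold: nfe2l2a, keap1a, keap1b, gclc, gclm, gstp1, nqo1, hmox1a, sod1 and cat. They were taken by name, as the rows of the deposited count table whose gene name equals a listed name, and they make up 10 of its 32266 rows. RNA sequencing measured their transcripts in fin folds 4 h after amputation (3 libraries) and in uncut fin folds (3 libraries), all from larvae described as 3 days old. The sample descriptions of both groups name DMSO, a solvent, and no drug, mutant or transgene is named for either group. The sources used here do not give the strain, the site of the cut or whether replicates are separate sets of larvae. The spread behind each p-value is thus that between these libraries, and it may be technical.

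Nrf2, encoded in zebrafish by nfe2l2a, is a transcription factor that turns on genes for antioxidant and detoxifying enzymes. In resting cells the adaptor Keap1 binds Nrf2 and hands it to a cullin ubiquitin ligase for destruction, and oxidants or electrophiles that modify Keap1 cysteines let Nrf2 build up. Wounding a larval zebrafish fin is known to raise hydrogen peroxide at the cut edge, made by the epithelial oxidase Duox. Nrf2 is controlled largely at the protein level, which transcript counts do not measure.

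Total counts ranged from 18595152 to 21128093 in amputated libraries and from 11216130 to 23019556 in uncut libraries. On the second principal component, with 12.1% of the variance, uncut replicate 1 lay away from the rest. Levels below are CPM, in which each library's counts are put on the same total and then adjusted by TMM, a method that sets the bulk of genes equal between libraries. The tissue label was checked against marker lists: superficial epidermis markers summed to 42360 to 52320 CPM in amputated libraries and 58140 to 77040 CPM in uncut libraries, and fin mesenchyme markers summed to 27030 to 31780 CPM in amputated libraries and 64000 to 67000 CPM in uncut libraries. In both of those lists every gene found had counts in each group. In bulk tissue, fewer cells of a type and less RNA per cell cannot be told apart.

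Of the 10 genes, 2 rose after amputation and 8 fell. The haem-degrading enzyme gene hmox1a rose 3.03-fold and gclm, the regulatory subunit of glutathione synthesis, rose 1.45-fold. The glutathione transferase gene gstp1 was 2.33-fold lower after amputation, and the other falls ranged from 1.32-fold to 1.74-fold, in sod1, cat, gclc, nqo1, nfe2l2a, keap1a and keap1b. All 10 passed the filter on low counts, and their groups did not overlap in any case, which was so in 51.1% of the 17883 tested genes. By edgeR's quasi-likelihood test with a Benjamini-Hochberg adjusted p under 0.05, 20.8% of all tested genes were called higher and 19.6% lower. Calls are more frequent among well-covered genes: of 12382 tested genes averaging at least 5 CPM, where all 10 lie, 24.3% were called higher and 24% lower. The 10 genes were chosen with earlier results of these data known, so their counts are a description.

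**Figure D1:**
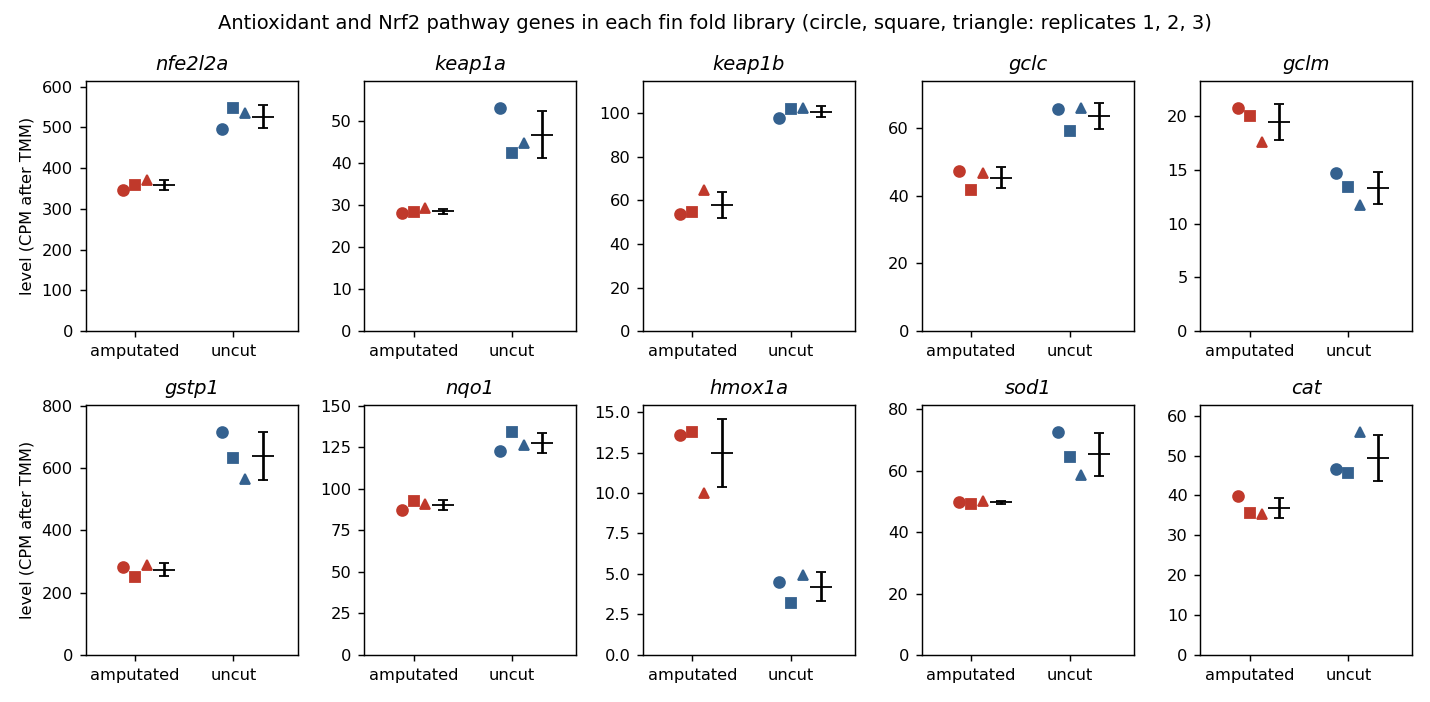
Level of each gene in CPM after TMM scaling (vertical axes, from 0) in the amputated and uncut libraries (horizontal axis), with replicates as points and the mean and SD (n = 3) beside them. The amputated points lie above the uncut points for hmox1a and gclm and below them for the other 8 genes.

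The transcription factor gene and both inhibitor genes fell. The gene nfe2l2a (chromosome 9, 1652136 to 1681220) had 345, 359 and 369.7 CPM in amputated replicates 1, 2 and 3, against 495, 548 and 536 CPM in uncut replicates 1, 2 and 3. Coordinates are as deposited, and no source used here names their genome build. Every amputated library lay below every uncut library, and within a group the replicates differed little. The log2 fold change was −0.56 ± 0.08 (SE, n = 3 each), with an edgeR adjusted p of 0.000171. Its Nrf2 paralog nfe2l2b, in zebrafish described mainly as a negative regulator, averaged 7.86 ± 1.56 CPM in amputated folds and 8.59 ± 0.87 CPM in uncut folds (SD, n = 3 each) and did not pass the test (−0.13 ± 0.17, edgeR adjusted p = 0.557).

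Zebrafish carry 2 copies of the inhibitor gene, keap1a and keap1b, and both fell. On chromosome 2 (41985607 to 42011622), keap1a had 28.0, 28.3 and 29.2 CPM in amputated replicates 1, 2 and 3, against 53.1, 42.3 and 44.8 CPM in uncut replicates 1, 2 and 3. Uncut replicate 1 was the highest library for keap1a, and the amputated libraries were close to each other. Its log2 fold change was −0.71 ± 0.10 (SE), with an edgeR adjusted p of 0.000132. On chromosome 6 (113947 to 120552), keap1b had 53.8, 54.8 and 64.8 CPM in amputated replicates 1, 2 and 3, against 97.9, 101.6 and 102.4 CPM in uncut replicates 1, 2 and 3. Here uncut replicate 1 was the lowest uncut library and amputated replicate 3 the highest amputated library, still well below the uncut group. Its log2 fold change was −0.80 ± 0.09 (SE), with an edgeR adjusted p of 2.73e-05.

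Ratios of counts within a library do not depend on how libraries are scaled, so they were used to ask whether the factor and its inhibitors changed in proportion. The count ratio of nfe2l2a to keap1a was 12.55 ± 0.20 in amputated folds and 11.4 ± 1.88 in uncut folds (SD, n = 3 each), and the groups overlapped (exact two-sided permutation p = 0.4). The count ratio of nfe2l2a to keap1b was 6.42, 6.55 and 5.705 in amputated replicates 1, 2 and 3, against 5.05, 5.39 and 5.23 in uncut replicates 1, 2 and 3. That ratio was higher in every amputated library, by 0.25 on the log2 scale, with an exact permutation p of 0.1, the smallest that 3 against 3 allows, and 0.167 after Benjamini-Hochberg adjustment over the 5 ratios computed. The ratio of keap1a to keap1b was 0.50 ± 0.04 in amputated folds and 0.47 ± 0.07 in uncut folds (SD, n = 3 each), with overlapping groups (exact permutation p = 0.6). A ratio of counts also reflects transcript length, so only its change between groups can be read.

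The genes for glutathione synthesis went in opposite directions. Glutamate-cysteine ligase, which makes the rate-limiting step of glutathione synthesis, is built of a catalytic subunit encoded by gclc and a modifier subunit encoded by gclm. The catalytic gene gclc (chromosome 13, 2261361 to 2296388) had 47.3, 41.8 and 46.8 CPM in amputated replicates 1, 2 and 3, against 65.5, 59.0 and 65.9 CPM in uncut replicates 1, 2 and 3, a log2 fold change of −0.48 ± 0.09 (SE; edgeR adjusted p = 0.000857). The modifier gene gclm (chromosome 8, 15231718 to 15239547) had 20.7, 19.95 and 17.6 CPM in amputated replicates 1, 2 and 3, against 14.7, 13.4 and 11.8 CPM in uncut replicates 1, 2 and 3, a log2 fold change of 0.54 ± 0.12 (SE; edgeR adjusted p = 0.00328). For both genes the groups were apart, with every amputated library below the uncut ones for gclc and above them for gclm. The count ratio of gclm to gclc was 0.44, 0.48 and 0.38 in amputated replicates 1, 2 and 3, against 0.22, 0.23 and 0.18 in uncut replicates 1, 2 and 3. On the log2 scale that ratio was 1.04 higher after amputation, with an exact permutation p of 0.1 and 0.167 after adjustment. With any library left out the difference stayed between 0.92 and 1.13.

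**Figure D2:**
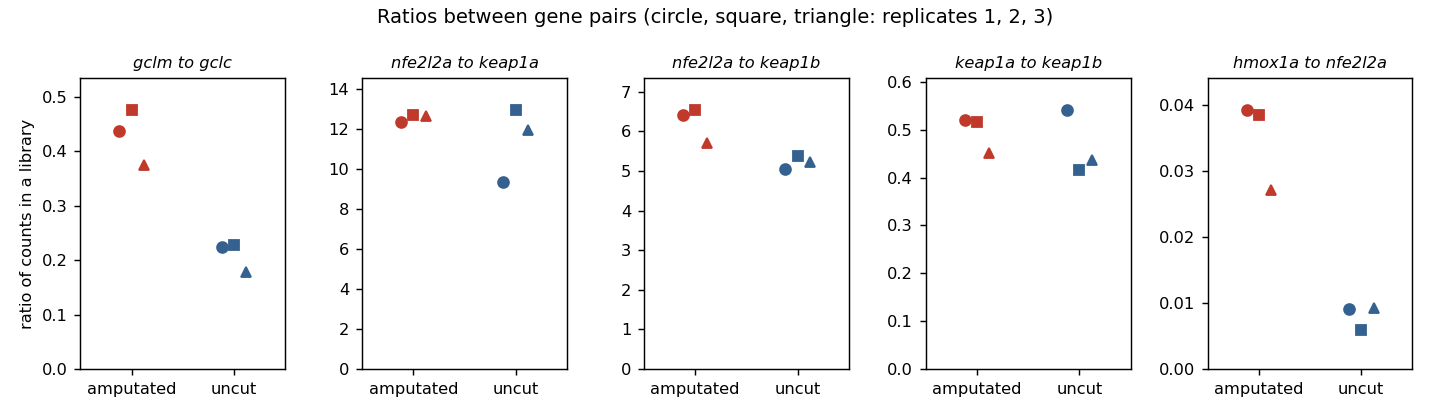
Ratio of counts between gene pairs within each library (vertical axes, from 0) in the amputated and uncut groups (horizontal axis), with replicates as points. The gclm to gclc ratio lies between 0.38 and 0.48 in amputated libraries and between 0.18 and 0.23 in uncut libraries, while the nfe2l2a to keap1a and keap1a to keap1b ratios overlap between groups.

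Among the enzymes that use glutathione or reduce quinones, gstp1 had the largest fall of the 10 genes. Glutathione S-transferase pi, its product, joins glutathione to electrophiles, and in zebrafish larvae gstp1 is a widely used readout of Nrf2 activity. The gene (chromosome 14, 3400020 to 3406749) had 283, 249.9 and 289.7 CPM in amputated replicates 1, 2 and 3, against 717, 632 and 564 CPM in uncut replicates 1, 2 and 3. The highest amputated library was far below the lowest uncut library. The log2 fold change was −1.22 ± 0.10 (SE, n = 3 each; edgeR adjusted p = 3.75e-06), and 1.82% of tested genes had a lower value. Its neighbour gstp2 (chromosome 14, 3388236 to 3396402) had 5, 3 and 1 counts in amputated replicates 1, 2 and 3 and 1, 9 and 3 counts in uncut replicates 1, 2 and 3, too few to test, and no source used here says how reads shared by such close paralogs were assigned.

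The quinone reductase gene nqo1, another standard Nrf2 target in mammals, also fell. On chromosome 7 (56401843 to 56420909), nqo1 had 87.1, 92.6 and 90.8 CPM in amputated replicates 1, 2 and 3, against 123, 134 and 126 CPM in uncut replicates 1, 2 and 3. The replicates of each group were close together and the groups were apart. The log2 fold change was −0.50 ± 0.08 (SE, n = 3 each), with an edgeR adjusted p of 0.000255.

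The largest rise was in hmox1a, which encodes the inducible haem oxygenase that breaks haem into biliverdin, carbon monoxide and iron. On chromosome 3 (25880611 to 25886721), hmox1a had 274, 287 and 230 counts in amputated replicates 1, 2 and 3, against 68, 69 and 51 counts in uncut replicates 1, 2 and 3. After scaling these were 13.6, 13.8 and 10.03 CPM in amputated folds and 4.48, 3.21 and 4.96 CPM in uncut folds. Amputated replicate 3 was the lowest of its group and still above every uncut library. The log2 fold change was 1.60 ± 0.19 (SE, n = 3 each), with an edgeR adjusted p of 4.44e-05, and 1.58% of tested genes had a higher value. It was between 1.40 and 1.73 with any library left out.

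Neither of the other haem oxygenase genes found was called higher with TMM scaling. The gene hmox2a, for an isoform that in mammals is mostly constitutive, fell (−0.67 ± 0.10, edgeR adjusted p = 0.000257), with 15.4 ± 0.89 CPM in amputated folds and 24.5 ± 1.33 CPM in uncut folds (SD, n = 3 each). For its copy hmox2b the value was 0.27 ± 0.13, short of the threshold (edgeR adjusted p = 0.133), although scaling by library totals gave 0.52 and a call (edgeR adjusted p = 0.00866). Within libraries the count ratio of hmox1a to nfe2l2a was 0.03495 ± 0.0068 in amputated folds and 0.0081 ± 0.0019 in uncut folds (SD, n = 3 each; exact permutation p = 0.1, 0.167 after adjustment).

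Macrophages are known to express haem oxygenase. Macrophage markers and most neutrophil markers moved in the same direction as hmox1a, as did 6 of 10 pan-leukocyte markers, though not the pan-leukocyte sum. Of 11 tested macrophage markers, 10 were called higher and none lower, by edgeR and by DESeq2 alike, with none lower at an unadjusted p under 0.05. The 15 macrophage markers summed to 96.4 to 102 CPM in amputated libraries and 35.1 to 37.0 CPM in uncut libraries, a 2.72-fold difference, and none of them was at 0 in either group. The 10 neutrophil markers found summed to 94.2 to 147 CPM in amputated libraries and 29.3 to 39.4 CPM in uncut libraries, with 7 of 9 tested higher and 1, alox5a, lower, and cxcr1 at 0 in uncut libraries. Of 10 pan-leukocyte markers, 6 were higher and 2, arhgdig and rac2, lower. The 10 summed to 318 to 338 CPM in amputated libraries and 365 to 441 CPM in uncut libraries, lower in every amputated library. Most of that sum was arhgdig (mean 162 CPM in amputated folds, 251 CPM in uncut folds) and rac2 (107 CPM and 134 CPM). The median log2 fold change of the 10 markers was 1.77. Red cell markers, from cells rich in haem, did not pass the test in either direction: none of 11 was called by edgeR or DESeq2 and none had an unadjusted p under 0.05. They summed to 93.6 to 161 CPM in amputated libraries and 72.0 to 187 CPM in uncut libraries, with hbbe3 at 0 in amputated libraries. The part of leukocytes in the rise of hmox1a was not tested.

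**Figure D3:**
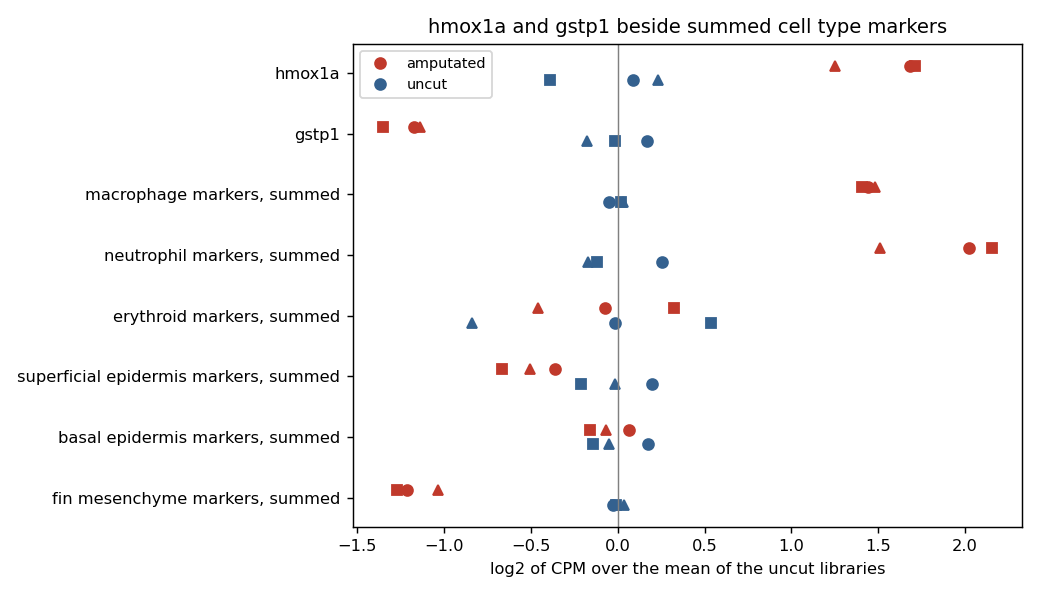
Log2 of the level over the mean of the uncut libraries (horizontal axis) for hmox1a, gstp1 and the summed markers of 6 cell types (rows), with amputated libraries in red above uncut libraries in blue, and circles, squares and triangles for replicates 1, 2 and 3. Macrophage and neutrophil sums lie to the right in amputated libraries with hmox1a, fin mesenchyme and superficial epidermis sums lie to the left with gstp1, and erythroid sums overlap. Not drawn are the pan-leukocyte and skeletal muscle sums, lower in amputated libraries, and the ionocyte and mucous cell sum, higher in them.

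The enzymes that remove superoxide and hydrogen peroxide directly had the smallest changes of the 10 genes. Superoxide dismutase 1, the cytosolic copper and zinc enzyme, is encoded by sod1 (chromosome 10, 25732682 to 25737741), which had 49.7, 49.2 and 50.2 CPM in amputated replicates 1, 2 and 3, against 72.8, 64.5 and 58.6 CPM in uncut replicates 1, 2 and 3. The amputated libraries were nearly equal, and uncut replicate 3 was the closest to them. The log2 fold change was −0.40 ± 0.09 (SE; edgeR adjusted p = 0.004). Catalase, which splits hydrogen peroxide in peroxisomes, is encoded by cat (chromosome 25, 7318706 to 7328383), which had 39.9, 35.6 and 35.4 CPM in amputated replicates 1, 2 and 3, against 46.6, 45.5 and 56.0 CPM in uncut replicates 1, 2 and 3. The groups were apart, with uncut replicate 3 the highest. The log2 fold change was −0.41 ± 0.10 (SE; edgeR adjusted p = 0.00554).

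The falls of sod1 and cat depended on the scaling. With libraries scaled by their totals alone, the median log2 fold change of all tested genes was 0.26 and not 0.003, and sod1 was at −0.14 (edgeR adjusted p = 0.217) and cat at −0.16 (edgeR adjusted p = 0.213). The other 8 genes kept their direction and their call under that scaling: gclc was at −0.23, nqo1 at −0.25, nfe2l2a at −0.30, keap1a at −0.45, keap1b at −0.54 and gstp1 at −0.96, while gclm was at 0.80 and hmox1a at 1.86. Each fall is thus a fall against most other genes, whose level TMM holds steady. In the authors' deposited table the same 2 genes were higher and the same 8 lower after amputation at an adjusted p under 0.05, where 19.6% of genes with an adjusted p were higher and 19% lower. Its log2 fold changes, turned round to amputated over uncut, ran from −1.20 in gstp1 to 1.47 in hmox1a in the authors' deposited table.

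**Figure D4:**
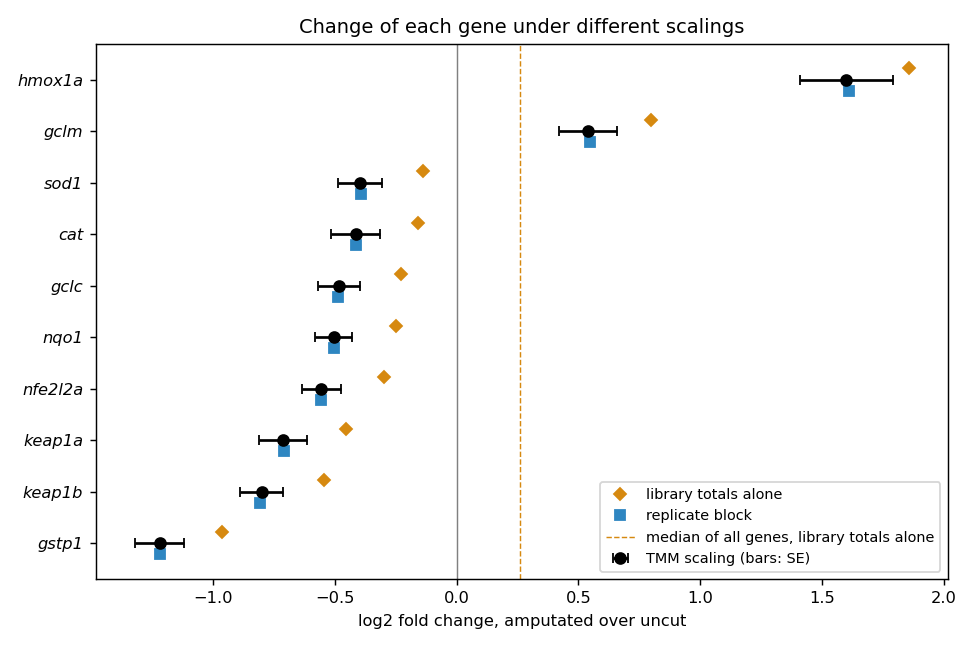
Log2 fold change, amputated over uncut (horizontal axis), of each gene (rows) with TMM scaling (black, with the SE as bars), with library totals alone (orange) and with the replicate number as a block (blue). The dashed line is the median of all tested genes with library totals alone, 0.26, and all 10 genes stay on their side of 0 under each setting.

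The replicate spread differed between genes and groups. In amputated libraries the coefficient of variation ran from 0.973% for sod1 to 16.9% for hmox1a, and in uncut libraries from 2.39% for keap1b to 21.4% for hmox1a. The counts of hmox1a were also the smallest of the 10 genes in every library. Within the uncut group, replicate 1 was highest for keap1a, gclm, gstp1 and sod1 and lowest for nfe2l2a, keap1b and nqo1, so its position was not shared by all 10 genes.

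The wider pathway was described with 9 lists of 179 names, of which 160 were found and 145 could be tested. Of these, 25 were called higher and 56 lower, 17.2% and 38.6%, against 20.8% and 19.6% of all tested genes. Without the 10 genes above, 23 of 135 were higher and 48 lower. Among genes averaging at least 5 CPM, also without the 10 genes, 17 of 111 were higher and 46 lower, 15.3% and 41.4%, against the 24.3% and 24% given above. The median log2 fold change of the 145 genes was −0.19, against 0.003 over all tested genes, and with library totals alone it was 0.07, against 0.26. With library totals alone 43 were higher and 36 lower. No set test was run, and the list counts below are to be set beside the 20.8% higher and 19.6% lower of all tested genes. The shares higher and lower were 21.1% and 31.6% for regulators, and 23.8% and 38.1% for glutathione synthesis and use. They were 18.8% and 43.8% for thioredoxin and peroxiredoxin, 25% and 25% for NADPH supply, and 22.2% and 38.9% for haem and iron. In these lists the rises were near the share of all tested genes.

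**Figure D5:**
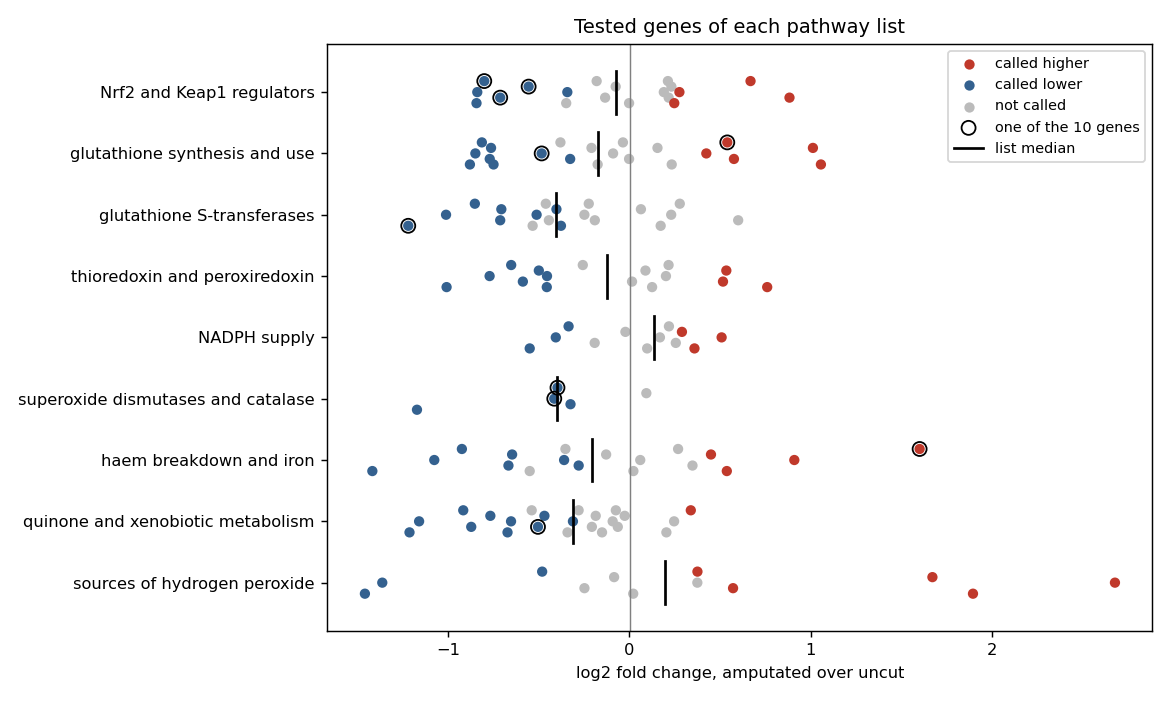
Log2 fold change, amputated over uncut (horizontal axis), of every tested gene in the 9 pathway lists (rows), coloured by the edgeR call, with the list median as a black bar and the 10 genes ringed. The medians of glutathione S-transferases and of superoxide dismutases and catalase lie at −0.40, and those of NADPH supply and of hydrogen peroxide sources at 0.13 and 0.20.

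Among the other regulators, bach1b and sqstm1 fell and dpp3 rose. Of 19 tested regulators, 6 fell and 4 rose, and the median log2 fold change was −0.08 (0.18 when scaled by library totals). The 19 and the 6 falls include nfe2l2a, keap1a and keap1b, described above. DESeq2 called 6 lower and 2 higher, and edgeR with library totals alone called 5 lower and 7 higher. In mammals Bach1 is a repressor that competes with Nrf2 at haem oxygenase and other target genes, and its gene bach1b had 47.4, 57.9 and 60.4 CPM in amputated replicates 1, 2 and 3, against 95.3, 100.2 and 101.8 CPM in uncut replicates 1, 2 and 3 (−0.84 ± 0.10, edgeR adjusted p = 3.48e-05). Its copy bach1a, at −0.08 ± 0.12, was not called (edgeR adjusted p = 0.66). The autophagy adaptor gene sqstm1, whose product binds Keap1 in mammals, fell (−0.84 ± 0.10), with 102 ± 2.77 CPM in amputated folds and 183 ± 26.8 CPM in uncut folds (SD, n = 3 each). The peptidase gene dpp3, whose product also binds Keap1 in mammals, rose (0.67 ± 0.10), with 38.7 ± 4.11 CPM in amputated folds and 24.3 ± 1.02 CPM in uncut folds (SD, n = 3 each).

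Other genes of glutathione synthesis and use also moved both ways. Of 21 tested genes of glutathione synthesis and use, 8 fell and 5 rose, and with library totals alone 7 fell and 6 rose. These counts include gclc and gclm, described above. The median log2 fold change was −0.17 (0.08 when scaled by library totals). The largest fall was in the amino acid transporter gene slc3a2b (−0.88 ± 0.18, edgeR adjusted p = 0.0021), while its copy slc3a2a was not called (edgeR adjusted p = 0.787). The falls included glutathione reductase gsr (−0.77 ± 0.10), which regenerates glutathione, the peroxidase genes gpx7 (−0.81 ± 0.09) and gpx8 (−0.75 ± 0.11), which act in the endoplasmic reticulum, and chac1, which degrades glutathione (−0.76 ± 0.13). The rises other than gclm were the cystine importer gene slc7a11 (1.06 ± 0.26), the glutathione-degrading enzyme gene chac2 (1.01 ± 0.29) and the glutaredoxin genes glrx3 (0.58 ± 0.08) and glrx5 (0.42 ± 0.11). Counts of slc7a11 were low, at 78, 71 and 62 in amputated replicates 1, 2 and 3 and 32, 27 and 15 in uncut replicates 1, 2 and 3.

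Of 19 tested glutathione S-transferase genes, 8 fell and none rose by edgeR, and the median log2 fold change was −0.40 (−0.14 when scaled by library totals). At an unadjusted p under 0.05, 11 were lower and 2 higher, and DESeq2 called 10 lower and 1 higher. With library totals alone edgeR called 6 lower and 4 higher. Besides gstp1, the falls included gstz1, which acts in tyrosine breakdown (−1.01 ± 0.11), and the membrane-bound transferase genes mgst1.1 (−0.85 ± 0.12), mgst1.2 (−0.71 ± 0.10) and mgst3b (−0.51 ± 0.10). The neighbours mgst1.1 and mgst1.2 on chromosome 4 may share reads.

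The thioredoxin gene txn and the reductase gene txnrd1 rose, while the peroxiredoxin gene prdx4, the methionine sulfoxide reductase gene msra and the thioredoxin inhibitor gene txnipa fell. Of 16 tested genes of this list, 7 fell and 3 rose, but with library totals alone 4 fell and 6 rose. The median log2 fold change was −0.12 (0.14 when scaled by library totals). The thioredoxin gene txn had 112, 115 and 107 CPM in amputated replicates 1, 2 and 3, against 71.0, 66.7 and 59.3 CPM in uncut replicates 1, 2 and 3 (0.76 ± 0.09, edgeR adjusted p = 3.09e-05). Thioredoxin reductase gene txnrd1, which recharges thioredoxin with NADPH and is a known Nrf2 target in mammals, rose (0.52 ± 0.09), with 183 ± 10.3 CPM in amputated folds and 128 ± 13.7 CPM in uncut folds (SD, n = 3 each). The thioredoxin inhibitor gene txnipa fell (−0.77 ± 0.11), as did the peroxiredoxin gene prdx4 (−0.59 ± 0.10) and the methionine sulfoxide reductase gene msra (−1.01 ± 0.14).

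NADPH, the reductant behind glutathione and thioredoxin, is supplied mainly by the pentose phosphate pathway. Of 12 tested genes of NADPH supply, 3 rose and 3 fell, but with library totals alone 6 rose and 1 fell. The median log2 fold change was 0.13 (0.39 when scaled by library totals). The genes pgls (0.51 ± 0.13) and taldo1 (0.36 ± 0.08), for enzymes of that pathway, rose.

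Of 5 tested genes of superoxide dismutases and catalase, 4 fell and none rose by edgeR or DESeq2, nor at an unadjusted p under 0.05. With library totals alone only 1 fell. The 4 falls include sod1 and cat, described above. The extracellular dismutase gene sod3b had the largest fall of the list (−1.17 ± 0.19), with 3.47, 2.64 and 3.27 CPM in amputated replicates 1, 2 and 3, against 8.37, 6.42 and 6.32 CPM in uncut replicates 1, 2 and 3. The mitochondrial dismutase gene sod2 was called lower (−0.32 ± 0.11, edgeR adjusted p = 0.0282), a call that did not hold when amputated replicate 1 or 3 was left out (edgeR adjusted p = 0.0745 and 0.0985), when uncut replicate 1 or 3 was left out (0.0836 and 0.0717), or with library totals alone (0.633). The gene sod3a had 0 counts in all libraries.

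Genes of haem and iron handling moved both ways. Of 18 tested, 7 fell and 4, hmox1a among them, rose, and with library totals alone 5 fell and 6 rose. The median log2 fold change was −0.20 (0.05 when scaled by library totals). The iron exporter gene slc40a1 had 51.2, 45.5 and 57.5 CPM in amputated replicates 1, 2 and 3, against 145, 128 and 139 CPM in uncut replicates 1, 2 and 3 (−1.42 ± 0.10, edgeR adjusted p = 1.1e-06). The groups were far apart, and 1.01% of tested genes had a lower log2 fold change. The transferrin receptor gene tfr1b, for iron uptake, rose (0.91 ± 0.12), while alas1, the entry enzyme of haem synthesis (−0.92 ± 0.10), and blvrb, a biliverdin reductase that acts after haem oxygenase (−0.65 ± 0.11), fell.

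Of 23 tested genes of quinone and xenobiotic metabolism, 10 fell and 1 rose, and the median log2 fold change was −0.31 (−0.06 when scaled by library totals), where 6 fell and 3 rose. The falls besides nqo1 included the transporter gene abcc5 (−0.92 ± 0.08), the aldehyde oxidase gene aox6 (−1.21 ± 0.15), the carbonyl reductase genes cbr1 (−1.16 ± 0.21) and cbr1l (−0.67 ± 0.09) and the sulfotransferase gene sult2st1 (−0.65 ± 0.10). The rise was in the aldehyde dehydrogenase gene aldh3b1 (0.34 ± 0.10).

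The epithelial oxidase gene duox fell, while the phagocyte oxidase genes cybb and ncf1 rose; these enzymes make hydrogen peroxide or its precursor superoxide. The epithelial oxidase gene duox had 18.2, 9.42 and 13.0 CPM in amputated replicates 1, 2 and 3, against 41.0, 28.5 and 42.7 CPM in uncut replicates 1, 2 and 3, a log2 fold change of −1.46 ± 0.21 (SE; edgeR adjusted p = 0.000163). For cybb the log2 fold change was 1.89 ± 0.24 and for ncf1 it was 1.67 ± 0.29 (SE, n = 3 each). The macrophage and neutrophil marker sums given above were also higher in amputated libraries. The pan-leukocyte sum, mostly arhgdig and rac2, was lower, while 6 of its 10 markers were called higher. The part of leukocytes was not tested. Of 12 tested genes of this list, 5 rose and 3 fell, and with library totals alone 5 rose and 1 fell. The median log2 fold change was 0.20 (0.45 when scaled by library totals). The aquaporin gene aqp3a, whose product lets hydrogen peroxide through membranes, was called lower (−0.48 ± 0.12), with −0.22 and an edgeR adjusted p of 0.0974 with library totals alone.

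Most markers of the fin mesenchyme, the superficial epidermis and skeletal muscle were called lower, the direction of the 8 falls. Of the basal epidermis markers more were lower than higher, and of the ionocyte and mucous cell markers more were higher than lower. Of 11 tested fin mesenchyme markers, 9 fell and none rose by edgeR or DESeq2, nor at an unadjusted p under 0.05, and of 13 superficial epidermis markers 10 fell and none rose by the same 3 counts. With library totals alone, 6 fin mesenchyme markers fell and 2 rose, and 5 superficial epidermis markers fell and 1 rose. Markers of the basal epidermis included 5 lower and 1 higher of 10 tested, and summed to 7190.5 to 8420 CPM in amputated libraries and 7280 to 9078 CPM in uncut libraries, which overlapped. Among markers of ionocytes and mucous cells, 5 of 11 rose and 2 fell, and they summed to 674 to 720.4 CPM in amputated libraries and 536 to 617 CPM in uncut libraries. Of 10 tested skeletal muscle markers 7 fell and none rose by edgeR or DESeq2, nor at an unadjusted p under 0.05. Scaling by library totals alone left 1 skeletal muscle marker lower and none higher. Under that scaling 3 basal epidermis markers were lower and 3 higher, and 1 ionocyte and mucous cell marker was lower and 6 higher. The mean marker sum in amputated folds was 44.4% of that in uncut folds for fin mesenchyme, 70.4% for superficial epidermis, 77.7% for skeletal muscle, 96.5% for basal epidermis and 121% for ionocytes and mucous cells. A sum follows its most abundant genes: and1 and and2 made up most of the fin mesenchyme sum, and krt4 most of the superficial epidermis sum. The median log2 fold changes of these lists were, in the same order, −0.48, −0.50, −0.38, −0.27 and 0.21. The part of these cell types in the 8 falls was not tested.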

How the data were processed

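The authors' deposited table held whole-number counts for 32266 Ensembl genes in 6 libraries, beside a deposited normalized signal (each library's counts over 1 size factor, largest relative deviation 5.5e-10). The authors also deposited their log2 fold change as uncut over amputated, its standard error, a Wald score, and p-values, with the adjusted p at NA for 12918 genes. The submitters' processing notes name TopHat, Cufflinks and DESeq2; no source used here gives their versions, the read counter or the genome build. The library kit does not mark strand, so antisense or overlapping genes may share reads.

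Counts were tested over all genes with edgeR 4.0.16 in R 4.3.3: filterByExpr (minimum count 10, total 15), TMM scaling, glmQLFit and glmQLFTest without covariates, Benjamini-Hochberg adjusted p under 0.05. CPM put each library's counts on the same total, adjusted by TMM; 1 count was worth 0.0436 to 0.0972 CPM. Standard errors were obtained by dividing each absolute log2 value by the root of its F. The code was tested on simulated data. Replicates of a group differed beyond sampling noise (chi-square per degree of freedom 4.68 to 16.8).

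Same-numbered libraries deviated together from their group means (correlations 0.269, 0.218 and 0.154), so the numbers may pair the samples. The labels give only numbers, so this pairing rests on the data. The main fit and the permutations of ratios did not use the pairing, and a fit with the replicate number as a block did. The block was an alternative fit, as were DESeq2's size factors, DESeq2 1.42.0, library totals alone, no filter, genes averaging at least 5 CPM, a threshold of 0.01 on the adjusted p, and each library left out. The 10 genes and all lists were chosen with earlier results of these data known. Named were the 10 genes, their near paralogs (hmox1b had no match and is not analysed here), and up to 5 called genes per list by smallest adjusted p among those with groups apart, of which some are not reported here; bach1a, slc7a11, chac2, glrx5 and aldh3b1 were named after their values were seen.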

Additional observations from a re-analysis of the deposited data

How the results depend on the processing

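All 10 genes kept their direction under every alternative run, and 8 of them kept their call as well; sod1 and cat lost theirs with library totals alone, as given above. With the replicate number as a block, 2 of the 10 genes were higher and 8 lower, as without it, 4125 genes were higher and 4016 lower over all tested genes, 28 pathway genes were higher and 61 lower, and no call of the 10 genes changed. Library totals alone, where the median of all tested genes is 0.26, gave 6821 genes higher and 1636 lower over all tested genes, in place of 3724 and 3499, and 43 pathway genes higher and 36 lower, in place of 25 and 56; nfe2l2b was then at 0.13 and not −0.13, and the cause was not tested. An adjusted p under 0.01, a stricter threshold, left 2562 genes higher and 2283 lower over all tested genes, and 16 pathway genes higher and 47 lower. With a library left out, the pathway counts ran from 18 to 25 higher and from 49 to 57 lower, and nfe2l2b, which never passed the test, ran from −0.27 to 0.016. Of the 10 genes, hmox1a had the fewest counts, at 51 to 69 in uncut libraries. Groups of 3 cannot give a permutation p below 0.1.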
